A study of Mus musculus with 8 samples.

Results

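The genes described are the conjugating enzymes of drug and hormone metabolism in the inflamed mouse colon. They are the glutathione S-transferases (GST), the UDP-glucuronosyltransferases (UGT) and the cytosolic sulfotransferases (SULT). They were chosen by gene symbol alone: a row of the deposited table was a member where its name began with Gst and a class letter, Mgst, Ugt1a, Ugt2a, Ugt2b or Sult, followed by a number. Of the 18262 listed genes, 54 fitted. They comprised 23 soluble GST, 3 microsomal GST (MGST), 16 UGT and 12 SULT genes. Messenger RNA of colon tissue was sequenced from wild-type mice in 2 groups, and all of these mice had chemically induced colitis: they were given DSS (dextran sulfate sodium), which damages the colonic epithelium when swallowed. The DSS group held 4 libraries. The DSS + GAA group held 4 libraries of DSS mice treated with GAA at 20 mg/kg, where GAA stands for ganoderic acid A, a Ganoderma triterpenoid. The treatment labels of those 4 libraries read 20, 21, 22 and 23 mg/kg, while their titles and the design text give 20 mg/kg, so they were kept as 1 group. Libraries are numbered 1, 2, 4 and 5 in each group. Mouse age and the length of treatment are not given in the sources used here, and untreated healthy colon was not analysed here. The labels do not say that each library came from a separate mouse, so p-values measure the spread between these libraries, which may be technical.

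Conjugating enzymes attach a water-soluble group to a reactive or fat-soluble molecule, which can then be carried out of the cell. GSTs join the thiol of glutathione to electrophiles, UGTs transfer glucuronic acid from UDP-glucuronic acid, and SULTs transfer sulfate from the donor PAPS. In the intestine these enzymes sit mainly in the absorptive epithelium, where they meet dietary compounds, bile acids and products of lipid peroxidation.

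Values are TPM, a length-normalized share of transcripts: they divide reads by transcript length and scale each library to the same total. They keep no record of sequencing depth, so the depth behind each value is unknown, and a gene at a low TPM cannot be given a counting error. Libraries of the groups separated along the first principal component of all tested genes (64.0% of the variance). DSS + GAA replicate 1 stood apart from the other 7 along the second (19.1%). The epithelial marker Epcam stood at 1740 ± 213 TPM in DSS and 2312 ± 297 TPM in DSS + GAA (SD, n = 4 each). Summed TPM of 18 epithelial markers ran from 17182 to 21128 in the DSS libraries and from 26542 to 28421 in the DSS + GAA libraries. In bulk tissue, fewer cells of a type and less RNA per cell cannot be told apart, and whether the share of epithelium set any of the values below was not tested. Albumin (Alb), the defining product of hepatocytes, the cells best known for these enzymes, was at 0.127 ± 0.110 and 0.204 ± 0.144 TPM.

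Conjugating enzymes were higher more often than lower in DSS + GAA. Of the 54 members, 42 reached 1 TPM in at least 4 of the 8 libraries and were tested. Of these, 8 were higher in DSS + GAA, 1 was lower and 33 did not pass an adjusted p of 0.05 (limma on log2(TPM + 1), adjusted over all 14217 tested genes). Over all tested genes, 5.96% were called higher and 28.2% lower. The 8 higher members were the soluble GSTs Gsto1, Gstp2 and Gstm6, the microsomal Mgst2 and Mgst3, and the sulfotransferases Sult1b1, Sult1d1 and Sult2b1. The lower one was Sult4a1, and no UGT passed. The fitted log2 fold change was positive in 33 of the 42 tested members. Its median was 0.60, beside -0.25 over all tested genes. With the 9 entries of the UGT1A locus counted as 1, for the reason given with the UGTs, 25 of 34 were positive and the median was 0.56. Every DSS + GAA library lay above every DSS library in 5 tested members and below in 1, where 5.31% and 27.6% of all tested genes did so. The number of calls depended on how libraries were scaled. With each library centred on its median, 13 members were higher and 1 lower (15.2% and 9.2% of all tested genes), and a trimmed mean gave 13 and 1 (13.3% and 11.6%). Quantile normalization gave 14 and 1 (11.8% and 11.3%). Centring on the 18 epithelial markers left 5 higher, namely Gstp2, Mgst2, Mgst3, Sult1d1 and Sult2b1, and 2 lower, Sult4a1 and Gstz1 (2.49% and 53.7%).

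**Figure D1:**
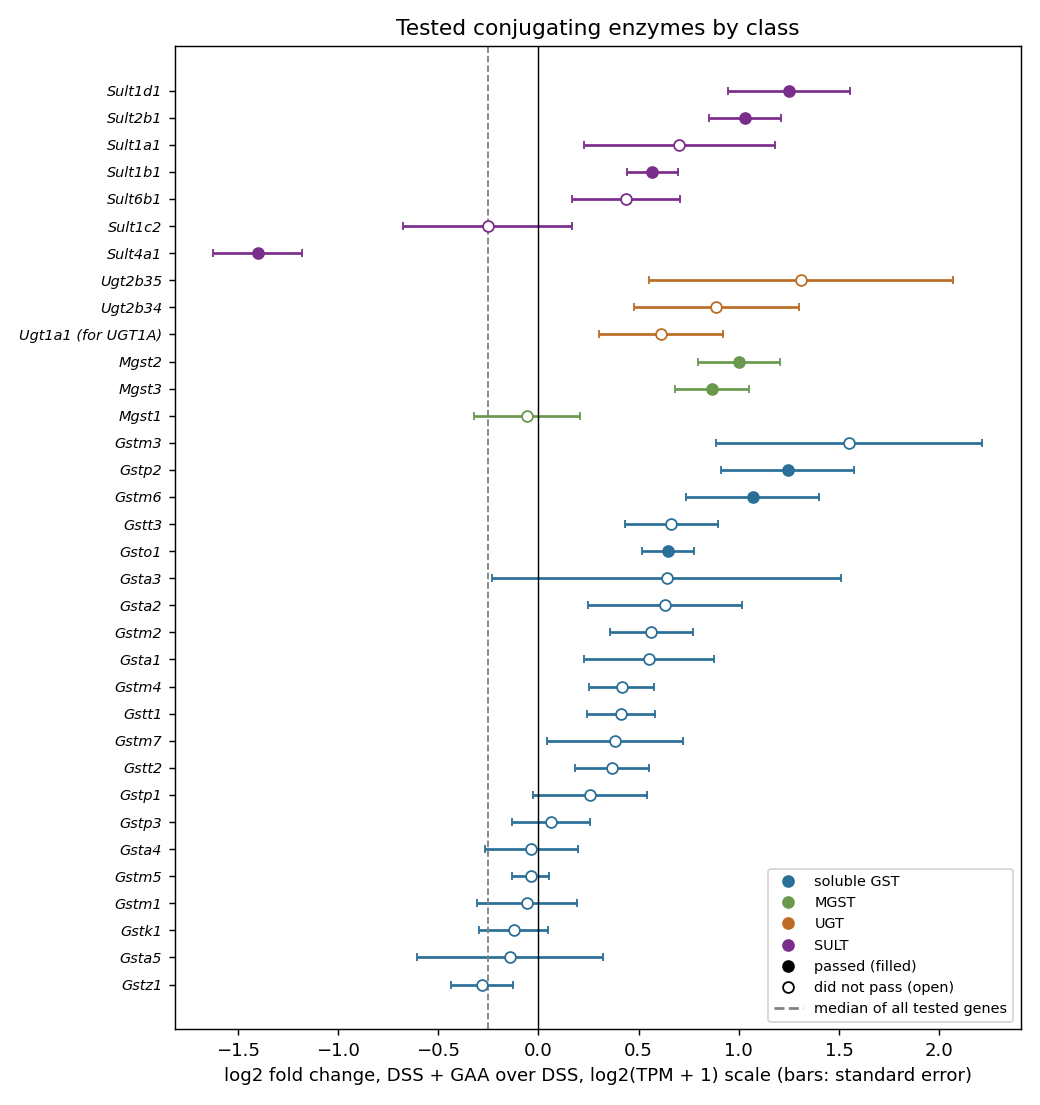
Log2 fold change of DSS + GAA over DSS on the log2(TPM + 1) scale for the tested conjugating enzymes, by class, with standard errors as bars, filled points for genes that passed and Ugt1a1 standing for the UGT1A locus. Most points lie right of 0, Sult4a1 lies at -1.40, and the dashed line marks the median of all tested genes at -0.25.

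Among the soluble GSTs, Gsto1 of the omega class had the highest levels and rose. Omega GSTs have a cysteine at the active site and reduce disulfides and dehydroascorbate rather than only joining glutathione to foreign compounds. Gsto1 (chromosome 19, 47854970 to 47864790) measured 522, 479, 601 and 515 TPM in DSS replicates 1, 2, 4 and 5 and 782, 823, 768 and 947 TPM in DSS + GAA replicates 1, 2, 4 and 5. Its groups did not overlap, and the 4 DSS + GAA libraries lay close together. Mean levels were 529 ± 51.5 TPM (SD, n = 4) and 830.0 ± 81.6 TPM (SD, n = 4). The log2 fold change was 0.65 ± 0.13 (SE, adjusted p = 0.00851). With each library centred on its epithelial markers, Gsto1 was 0.33 higher and no longer passed (adjusted p = 0.0947). Gsto2, the other omega gene, stayed at or below 0.533 TPM in every library and was not tested.

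Gstp2 of the pi class rose, while its neighbour Gstp1 did not pass. Pi GSTs are abundant in many epithelia and also bind the stress kinase JNK. The genes lie side by side on chromosome 19, Gstp1 at 4035407 to 4037985 and Gstp2 at 4040285 to 4046023. Their coding sequences differ at 12 of 630 positions. The first 120 coding bases of each (GENCODE vM21, GRCm38) are shown because reads can be told apart only where they cover such a difference, and the 6 differences within this stretch are in capitals.
Gstp1: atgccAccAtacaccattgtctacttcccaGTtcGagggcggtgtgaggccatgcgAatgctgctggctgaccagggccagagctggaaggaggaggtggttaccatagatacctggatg
Gstp2: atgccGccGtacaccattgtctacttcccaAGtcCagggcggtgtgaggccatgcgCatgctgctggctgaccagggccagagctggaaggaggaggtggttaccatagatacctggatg
Of all 150-base words of the Gstp2 transcript, the read length used, 49.4% also occur in another gene, and for Gstp1 the share is 41.8%. The sources used here do not say how such reads were assigned, so the division of signal between the 2 genes is uncertain. Gstp2 measured 33.7, 34.2, 55.2 and 23.1 TPM in the DSS libraries and 46.8, 98.5, 80.9 and 132 TPM in the DSS + GAA libraries. DSS + GAA replicate 1 fell below DSS replicate 4, and the other DSS + GAA libraries lay above every DSS library. The log2 fold change was 1.24 ± 0.33 (SE, adjusted p = 0.0211). The call was lost when DSS replicate 1 (adjusted p = 0.0644), DSS replicate 2 (0.0513), DSS replicate 5 (0.0501) or DSS + GAA replicate 2 was left out. Gstp1 was the more abundant of the pair, at 288 ± 63.2 TPM in DSS and 355 ± 123 TPM in DSS + GAA (SD, n = 4 each), and its log2 fold change was 0.26 ± 0.28 (adjusted p = 0.504). The third pi gene, Gstp3, had a log2 fold change of 0.06 ± 0.19 (adjusted p = 0.822).

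In the mu class, whose members are classical detoxifying GSTs, 1 of 7 tested genes rose. That gene was Gstm6, which is expressed at a low level here. It measured 2.19, 3.39, 2.94 and 2.81 TPM in DSS and 3.03, 6.30, 9.92 and 11.7 TPM in DSS + GAA. The DSS libraries were alike, and the DSS + GAA libraries ran from a DSS level in replicate 1 to a several-fold higher level in replicates 4 and 5. Its log2 fold change was 1.07 ± 0.33 (SE, adjusted p = 0.0356). This was the least secure call among the members: it was lost in 8 of the alternative settings, with adjusted p reaching 0.105 without DSS replicate 1. With a filter of at least 5 TPM in at least 4 libraries, Gstm6 was not tested at all. Gstm1, the most abundant mu gene, stood at 130.4 ± 23.9 TPM in DSS and 130.1 ± 50.8 TPM in DSS + GAA (SD, n = 4 each; log2 fold change -0.06 ± 0.25, adjusted p = 0.880).

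The remaining mu genes ranged from flat to widely scattered, and those named in this paragraph were chosen after their values were seen. Gstm5 was nearly constant, between 56.7 and 62.3 TPM in all 8 libraries (log2 fold change -0.04 ± 0.09, adjusted p = 0.775). Gstm3 measured 3.99, 2.28, 9.51 and 2.68 TPM in DSS and 2.64, 14.6, 21.6 and 35.4 TPM in DSS + GAA. Replicate 1 of DSS + GAA sat among the DSS libraries and replicate 5 was the highest of all 8. The Gstm3 log2 fold change of 1.55 ± 0.66 was the largest of any tested member and did not pass (adjusted p = 0.0978). Without DSS + GAA replicate 1 it was 2.22 ± 0.42 (adjusted p = 0.00387). Gstm2 measured 79.6 ± 11.4 TPM in DSS and 120.5 ± 31.7 TPM in DSS + GAA (SD, n = 4 each; log2 fold change 0.56 ± 0.21, adjusted p = 0.0602). It passed with each library scaled by its median, by quantiles or by a trimmed mean, and without DSS + GAA replicate 1 (adjusted p = 0.00589).

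None of the 5 alpha GSTs passed, and 0 had an unadjusted p under 0.05 in limma, beside 6541 of all 14217 tested genes. Alpha GSTs conjugate products of lipid peroxidation, and Gsta4 in particular is known for its action on 4-hydroxynonenal. Gsta4, the most abundant alpha gene (chromosome 9, 78182774 to 78209349), measured 102, 97.8, 94.2 and 72.4 TPM in DSS and 69.4, 80.5, 75.5 and 146 TPM in DSS + GAA. Replicate 5 of DSS + GAA lay well above all the others. The log2 fold change was -0.03 ± 0.23 (adjusted p = 0.921). Gsta3, named after its values were seen, measured 14.4, 5.51, 18.4 and 12.5 TPM in DSS against 1.52, 25.1, 40.8 and 55.6 TPM in DSS + GAA. Its lowest and its 3 highest libraries were all DSS + GAA, and its log2 fold change was 0.64 ± 0.87 (adjusted p = 0.594). Leaving out DSS + GAA replicate 1 gave 1.63 ± 0.38 (adjusted p = 0.00924). Gsta1, also named after its values were seen, shares 73.7% of its 150-base words with other genes, so its values (46.9 ± 10.4 and 75.5 ± 43.2 TPM) may hold their reads. Gsta2 and Gsta5 share 26.8% and 19.0%.

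Theta, kappa and zeta GSTs did not pass either. In limma 2 of 3 tested theta genes and 0 of the others had an unadjusted p under 0.05. Over all tested genes, 6541 of 14217 did. Theta GSTs act on small halogenated compounds, Gstk1 of the kappa class resides in mitochondria and peroxisomes, and Gstz1 of the zeta class works in the breakdown of tyrosine. Gstt3 measured 25.4, 18.4, 28.7 and 25.3 TPM in DSS and 25.1, 37.5, 43.8 and 54.9 TPM in DSS + GAA. Only DSS + GAA replicate 1 lay within the DSS range. Its log2 fold change of 0.66 ± 0.23 fell just short (adjusted p = 0.0526), and it passed with each library scaled by its median, by quantiles or by a trimmed mean, and without DSS + GAA replicate 1 (adjusted p = 0.00499). Of its 150-base words, 21.7% also occur in another gene. Gstk1 stood at 78.6 ± 11.7 TPM in DSS and 72.6 ± 14.1 TPM in DSS + GAA (log2 fold change -0.12 ± 0.17, adjusted p = 0.598). Gstz1 stood at 23.3 ± 1.91 and 19.3 ± 3.91 TPM (log2 fold change -0.28 ± 0.15, adjusted p = 0.179; SD, n = 4 each). With libraries centred on epithelial markers Gstz1 was -0.60 and passed as lower (adjusted p = 0.0149). Summed over the soluble GSTs, expression ran from 1368 to 1667 TPM in the DSS libraries, and the DSS + GAA libraries ran from 1563 to 2696 TPM, so the ranges overlapped through DSS + GAA replicate 1.

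Of the 3 microsomal GSTs, which are membrane proteins unrelated in sequence to the soluble enzymes, Mgst2 and Mgst3 rose and Mgst1 did not pass. Mgst2 and Mgst3 belong to the family that also makes leukotriene C4, and both have glutathione peroxidase activity toward lipid hydroperoxides. Mgst2 (chromosome 3, 51660360 to 51682677) measured 115, 109, 198 and 152 TPM in DSS and 260.4, 284, 242 and 339.9 TPM in DSS + GAA. Every DSS + GAA library exceeded every DSS library. Mean levels were 143 ± 41.0 and 282 ± 42.4 TPM (SD, n = 4 each), a ratio of 1.97, and the log2 fold change was 1.00 ± 0.20 (SE, adjusted p = 0.00880). Mgst3 (chromosome 1, 167371966 to 167393841) measured 327, 294, 449 and 434 TPM in DSS and 543, 674, 711 and 799.8 TPM in DSS + GAA. Its groups did not overlap, and DSS + GAA replicate 1 was the lowest of its group. The log2 fold change was 0.87 ± 0.18 (SE, adjusted p = 0.00984). Both calls were kept in all 18 alternative settings. Mgst1, a reactive-oxygen-sensitive enzyme of the endoplasmic reticulum and outer mitochondrial membrane, measured 326, 234, 239 and 321 TPM in DSS and 160, 250, 388 and 322 TPM in DSS + GAA. Its lowest and its highest library were both DSS + GAA (log2 fold change -0.06 ± 0.26, adjusted p = 0.883).

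The promoters of the 2 microsomal genes that rose are shown because both were called higher. Whether the 2 genes share any regulation was not tested. Sequences are from RefSeq on GRCm38.p6, 250 bases before to 50 bases after the annotated start, with GCGTG in capitals. Mgst2 is at chr3:51660929-51661228 on the plus strand and Mgst3 at chr1:167393792-167394091 on the minus strand. The RefSeq start of Mgst2 lies inside the longer GENCODE gene model.
Mgst2: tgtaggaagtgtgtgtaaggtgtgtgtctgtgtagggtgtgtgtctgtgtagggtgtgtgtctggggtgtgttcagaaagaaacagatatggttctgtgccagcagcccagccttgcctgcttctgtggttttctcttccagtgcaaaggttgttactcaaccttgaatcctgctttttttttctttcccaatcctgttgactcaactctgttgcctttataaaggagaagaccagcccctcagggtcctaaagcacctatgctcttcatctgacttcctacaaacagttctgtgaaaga
Mgst3: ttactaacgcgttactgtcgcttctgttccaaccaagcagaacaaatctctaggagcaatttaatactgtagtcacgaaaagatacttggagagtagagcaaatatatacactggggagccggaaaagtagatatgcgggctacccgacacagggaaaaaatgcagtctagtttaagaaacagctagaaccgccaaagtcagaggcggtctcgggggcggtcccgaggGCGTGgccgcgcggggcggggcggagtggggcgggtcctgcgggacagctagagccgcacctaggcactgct
The motifs were searched on both strands in the promoter entries: the core GCGTG bound by the aryl hydrocarbon receptor, TGACNNNGC of the antioxidant response element bound by NRF2, and TTTATGG of the intestinal factor CDX2. The 49 members with an entry had 61 promoters. GCGTG was present in 23.0% of them and in 32.4% of the 32851 mouse promoters. TGACNNNGC was present in 6.56% and 12.4%, and TTTATGG in 1.64% and 2.75%. Counted by gene, GCGTG was found in 4 of the 8 members that rose: Mgst3, Sult1b1, Sult1d1 and Sult2b1. It was also in 8 of the 29 members with an entry that did not pass, and in 0 of the 12 not tested. TTTATGG was in Gstm6 alone. TGACNNNGC was in 0 of the 8 that rose and in 4 of those 29. Some genes have more than 1 promoter entry, so counts of genes cannot be set against the shares of promoters. A match is only a run of letters in the window and does not show that a factor binds.

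**Figure D2:**
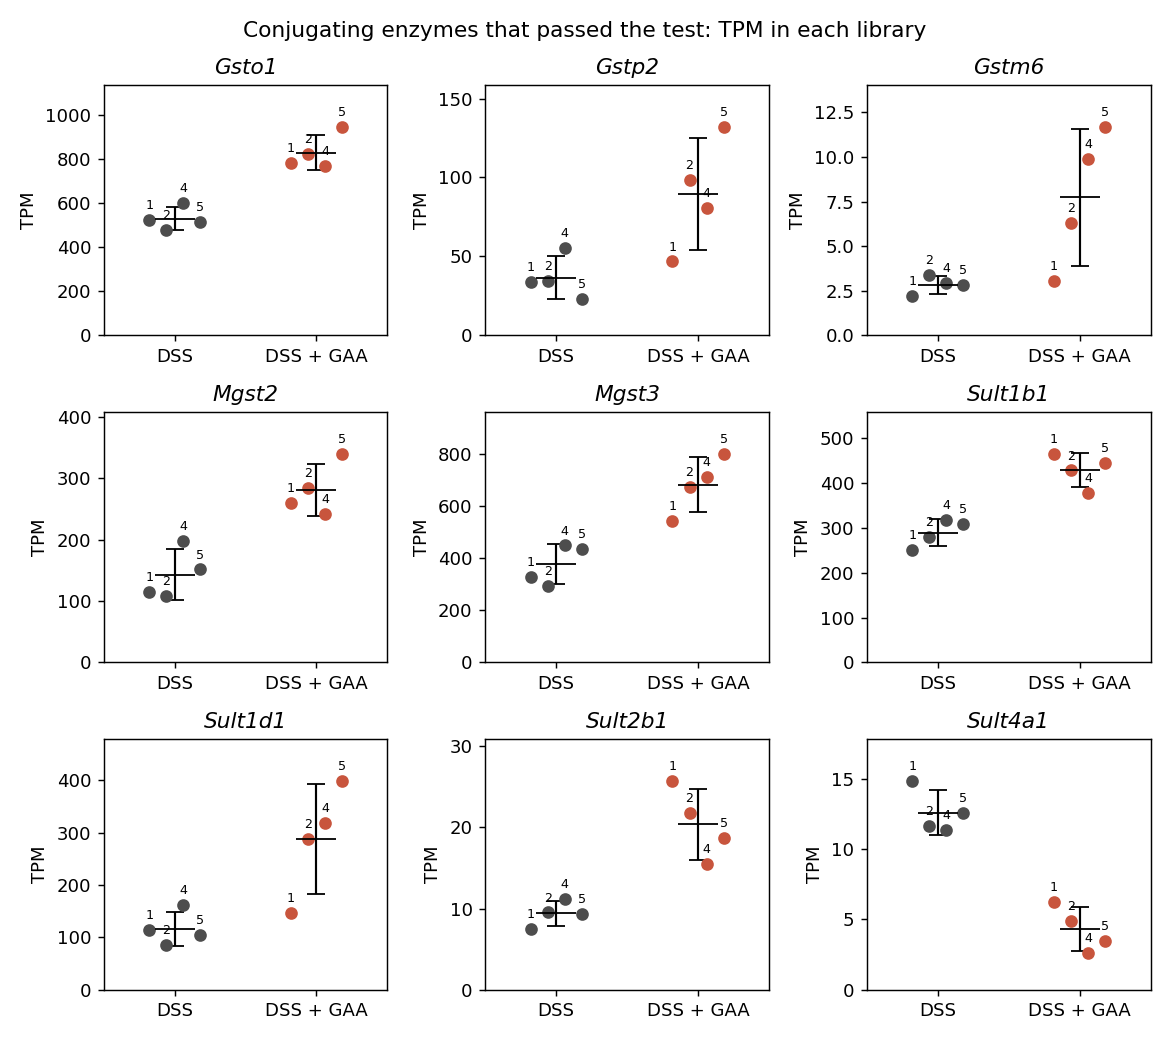
TPM in each library for the 9 conjugating enzymes that passed the test, with replicate numbers beside the points and bars for the mean and SD of 4 libraries. Gsto1, Mgst2, Mgst3, Sult1b1 and Sult2b1 have DSS + GAA above DSS without overlap, Sult4a1 has it below, and Gstp2, Gstm6 and Sult1d1 overlap through DSS + GAA replicate 1.

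The 9 UGT1A entries cannot be read as 9 separate measurements. UGT1A enzymes glucuronidate bilirubin, phenols, steroids and many drugs, and the locus on chromosome 1 makes each of them from its own first exon joined to the same set of later exons. The last 40 bases of the first exon of 3 of them (lower case) and the first 40 bases of the shared exon that follows (capitals, from base 88215044) show this arrangement (GENCODE vM21, GRCm38, plus strand).
Ugt1a1: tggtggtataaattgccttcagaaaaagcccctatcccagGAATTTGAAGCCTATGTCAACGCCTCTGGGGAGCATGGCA
Ugt1a6a: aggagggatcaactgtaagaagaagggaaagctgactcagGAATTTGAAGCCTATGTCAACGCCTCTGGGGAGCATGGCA
Ugt1a9: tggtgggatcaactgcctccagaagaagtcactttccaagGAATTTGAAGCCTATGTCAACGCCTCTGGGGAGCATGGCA
All 9 share 1311 exon bases between positions 88215044 and 88218997, which are 30.4% to 59.9% of the exon bases of each. The TPM values moved in step: the ratio of each entry to Ugt1a1 varied by at most 1.09% of its lowest value over the 8 libraries, except for Ugt1a7c (6.05%) and Ugt1a6a (3.41%). Which isoform carried the signal cannot be told from these values. The entries are therefore described as 1 locus, with Ugt1a1 as its stand-in, a choice made after the values were seen.

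No UGT passed the test, although all 11 tested entries, or 3 with the UGT1A locus counted once, had a positive log2 fold change. In limma 0 of the 11 had an unadjusted p under 0.05 with all 8 libraries, beside 6541 of all 14217 tested genes. Ugt1a1 measured 134, 101, 144 and 138 TPM in DSS and 104, 191, 223 and 334 TPM in DSS + GAA. Replicate 1 of DSS + GAA lay inside the DSS range and the other 3 lay above all DSS libraries. Mean levels were 129 ± 19.3 and 213 ± 95.0 TPM (SD, n = 4 each), and the log2 fold change was 0.61 ± 0.31 (SE, adjusted p = 0.151). Ugt1a9 and Ugt1a5, the entries with the highest mean TPM, gave log2 fold changes of 0.60 ± 0.31 and 0.61 ± 0.31 (adjusted p = 0.152 for both). Ugt2b34, the leading member of the UGT2B branch, whose enzymes act mainly on steroids and bile acids, measured 87.4, 69.1, 114 and 74.8 TPM in DSS and 62.1, 160, 217 and 286 TPM in DSS + GAA. DSS + GAA replicate 1 was the lowest of all 8 libraries and replicate 5 the highest. Its log2 fold change was 0.89 ± 0.41 (adjusted p = 0.122). Ugt2b35, named after its values were seen, measured 2.18, 1.19, 3.20 and 2.09 TPM in DSS and 0.287, 6.96, 14.1 and 21.2 TPM in DSS + GAA, again with replicate 1 lowest and replicate 5 highest (log2 fold change 1.31 ± 0.76, adjusted p = 0.206).

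Within the limma fit this outcome turned on 1 library. Without DSS + GAA replicate 1, all 11 tested UGT entries passed as higher, or all 3 with the UGT1A locus counted once. In that fit 9.05% of all tested genes were higher. Ugt1a1 then had a log2 fold change of 0.91 ± 0.20 (adjusted p = 0.00705), Ugt2b34 of 1.33 ± 0.23 (adjusted p = 0.00225) and Ugt2b35 of 2.17 ± 0.35 (adjusted p = 0.00191). With all 8 libraries limma called no UGT rise, and with 7 the calls rest on 3 DSS + GAA libraries. The authors' deposited table, described below, does call UGTs higher, so the outcome also differed between the 2 sets of calls. Summed UGT expression, with the UGT1A locus counted once, ran from 172 to 261 TPM in DSS and stood at 167, 358, 455 and 641 TPM in DSS + GAA replicates 1, 2, 4 and 5.

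**Figure D3:**
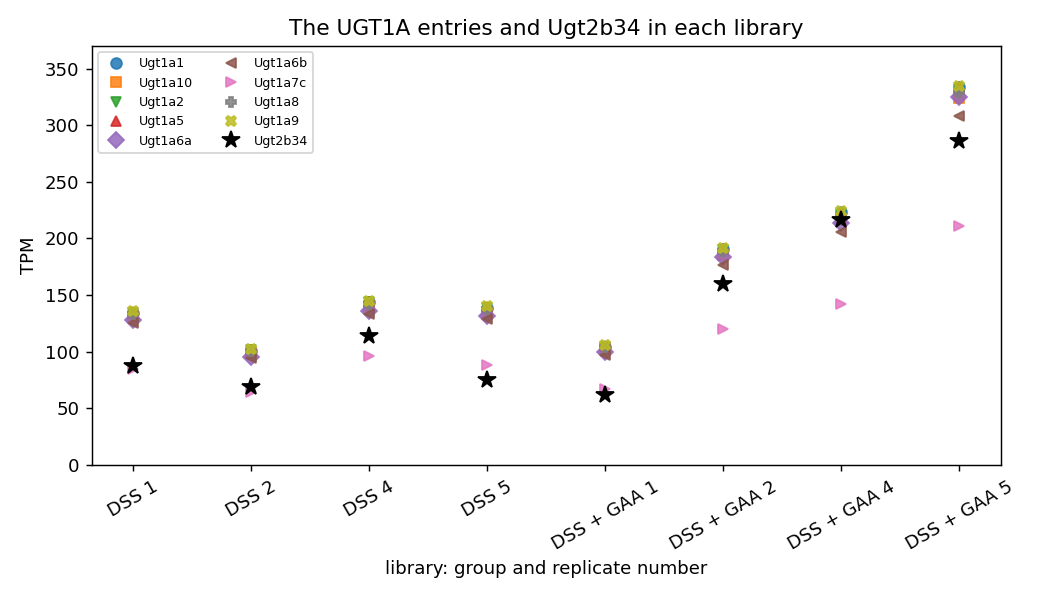
TPM of the 9 UGT1A entries and of Ugt2b34 in each of the 8 libraries. The UGT1A points nearly coincide within each library apart from the lower Ugt1a7c, and DSS + GAA replicate 1 lies at the level of the DSS libraries while replicates 2, 4 and 5 lie above them.

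Among the 7 tested sulfotransferases, Sult1b1, Sult1d1 and Sult2b1 rose and Sult4a1 fell. Sult1b1 sulfates thyroid hormones and small phenols and is a typical enzyme of the gut epithelium. It measured 252, 279.9, 317 and 309 TPM in DSS and 466, 429, 377 and 446 TPM in DSS + GAA, and the groups did not overlap. DSS + GAA replicate 1 was the highest of its group here. The log2 fold change was 0.57 ± 0.13 (SE, adjusted p = 0.0116), and it was 0.25 and did not pass with libraries centred on epithelial markers (adjusted p = 0.176). Sult1d1, which lies near Sult1b1 on chromosome 5 and acts on catecholamines and other phenols, measured 115, 85.1, 161 and 105 TPM in DSS and 148, 288, 319 and 399 TPM in DSS + GAA. Replicate 1 of DSS + GAA fell below DSS replicate 4, and the other 3 were above all DSS libraries. Its log2 fold change was 1.25 ± 0.31 (adjusted p = 0.0155), and the call was lost without DSS replicate 1 (adjusted p = 0.0505). Sult2b1 (chromosome 7, 45729983 to 45784669), which makes cholesterol sulfate in differentiating epithelia, measured 7.49, 9.53, 11.2 and 9.36 TPM in DSS and 25.7, 21.8, 15.5 and 18.7 TPM in DSS + GAA. All 4 DSS + GAA libraries were above all DSS libraries, with replicate 1 highest. Its log2 fold change was 1.03 ± 0.18 (adjusted p = 0.00626), and the call was kept in all 18 alternative settings.

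Sult4a1 fell. It is an atypical, brain-enriched sulfotransferase whose substrate is not established. On chromosome 15 (84076097 to 84105754), it measured 14.8, 11.6, 11.3 and 12.6 TPM in DSS and 6.21, 4.89, 2.63 and 3.47 TPM in DSS + GAA. The groups were clearly apart, and the ratio of the means was 0.342. Its log2 fold change was -1.40 ± 0.22 (SE, adjusted p = 0.00538), and the call was kept in all 18 alternative settings. Markers of enteric neurons moved with it. All 12 neuronal genes of a list added after the data were seen were lower (median log2 fold change -1.69), beside 28.2% of all tested genes. Because the list was added that way, its count is a description alone. Snap25, 1 of the 12, went from 107 ± 20.4 to 32.8 ± 15.6 TPM. Their summed TPM was 502 to 692 in DSS and 317, 198, 120 and 116 in DSS + GAA replicates 1, 2, 4 and 5. The part of these cells in the Sult4a1 values was not tested.

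Sult1a1 and Sult1c2 did not pass. Sult1a1, the main phenol sulfotransferase, was named after its values were seen. It measured 78.6, 49.7, 53.8 and 85.6 TPM in DSS and 36.4, 108, 153 and 213 TPM in DSS + GAA. Its lowest library was DSS + GAA replicate 1, and the other 3 of that group were its highest (log2 fold change 0.70 ± 0.47, adjusted p = 0.273; 1.21 ± 0.26 and adjusted p = 0.00673 without replicate 1). Sult1c2 had a log2 fold change of -0.25 ± 0.42 (adjusted p = 0.666) and Sult6b1, at 0.470 to 2.72 TPM, one of 0.44 ± 0.27 (adjusted p = 0.232). Summed over all SULT genes, the DSS libraries held 462 to 592 TPM and the DSS + GAA libraries 693 to 1128 TPM, without overlap.

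Of the 54 members, 12 were too low to test. The highest value among them was 1.91 TPM. They were Gsto2, Gstt4, Ugt2a1, Ugt2a2, Ugt2b1, Ugt2b5, Ugt2b36, Sult1c1, Sult1e1, Sult2a8, Sult5a1 and Sult6b2. Sult5a1 measured 1.91, 1.18, 0.590 and 1.87 TPM in DSS and 0.306, 0.252, 0.104 and 0.084 TPM in DSS + GAA. Sult1e1, the estrogen sulfotransferase, measured 0.632, 0.402, 0.208 and 0.269 TPM in DSS, was listed at 0 in DSS + GAA replicates 1, 2 and 5, and measured 0.131 TPM in replicate 4. Gstt4 was listed at 0 in the same 3 DSS + GAA libraries and measured 0.252 to 0.618 TPM in DSS. With no filter on low values, Sult5a1, Sult1e1 and Gstt4 were called lower (adjusted p = 0.0108, 0.0176 and 0.00878), as were 23.5% of all listed genes. At such levels 1 library rests on few reads, whose number is unknown here.

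The DSS + GAA libraries differed among themselves in these enzymes. With the UGT1A locus counted once, DSS + GAA replicate 1 was the lowest of its group in 25 of 34 tested members, 73.5%, and replicate 5 was the highest in 25 of 34. Over all tested genes, replicate 1 was the lowest in 42.9% and replicate 5 the highest in 28.9%. Replicate 1 exceeded the DSS mean in 13 of the 34 members, replicate 2 in 25, replicate 4 in 27 and replicate 5 in 32. Without replicate 1, 27 of the 42 tested members were called higher and 1 lower, or 19 of 34 higher with the UGT1A locus counted once. In that fit 9.05% of all tested genes were higher and 31.4% lower. All 8 higher calls were kept in it, and the 19 added ones were the 11 UGT entries, 7 soluble GSTs and Sult1a1.

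The summed epithelial markers of replicate 1 were 26542 TPM, beside 27651 to 28421 TPM in the other 3 DSS + GAA libraries. Its absorptive colonocyte sum, in which Saa1 was the most abundant gene, was the highest of all 8 libraries at 27582 TPM. The other DSS + GAA libraries held 18067 to 22643 TPM and the DSS libraries 11150 to 23122 TPM. The goblet cell sum of replicate 1 was likewise the highest of all 8 at 26328 TPM. Its macrophage sum, in which Lyz2 was the most abundant gene, was 2379 TPM against 544 to 1467 TPM in the other 7. Its fibroblast sum of 1492 TPM was the highest of its group. Its T cell sum of 171 TPM was the highest of all 8 libraries, the others of its group standing at 73.1 to 142 TPM and the DSS libraries at 27.0 to 48.7 TPM. Across groups, beside the 5.96% higher and 28.2% lower over all tested genes, 5 of 18 epithelial markers were higher and 0 lower. Among the absorptive colonocyte markers 4 of 13 were higher and 1 lower. The small intestinal enterocyte list had 6 of 10 tested markers higher and 1 lower, the goblet cell list 4 of 10 higher and the T cell list 8 of 9. Lower were 5 of 10 fibroblast, 7 of 10 neutrophil, 2 of 10 macrophage, 1 of 10 smooth muscle and 2 of 5 tested adipocyte markers. Of the 2 tested hepatocyte markers, Ttr (unadjusted p = 0.0484) and Apoa2 (unadjusted p = 0.491), 0 passed in limma. Several of these counts changed when 1 library was left out, as did the shares over all tested genes. Without DSS replicate 1, epithelial markers higher fell to 2, colonocyte markers to 1, T cell markers to 5 and fibroblast markers lower to 1. In that fit 2.59% of all tested genes were higher and 12% lower. Leaving out DSS + GAA replicate 2 gave 2, 1, 5 and 5 in the same order, beside 2.95% higher and 17.2% lower. Any other library left out gave 3.78% to 9.05% of all tested genes higher and 19.1% to 31.4% lower. T cell markers higher also numbered 5 without DSS replicate 2 or DSS replicate 4. Colonocyte markers higher numbered 2 without DSS replicate 2, DSS replicate 4 or DSS + GAA replicate 5. The epithelial count was 3 without DSS + GAA replicate 4, and the fibroblast count was 3 without DSS replicate 2, DSS replicate 4, DSS + GAA replicate 4 or DSS + GAA replicate 5. On leaving out DSS + GAA replicate 1, 8 fibroblast, 6 macrophage, 9 neutrophil and 3 smooth muscle markers were lower and both hepatocyte markers higher. The smooth muscle count was 0 without DSS replicate 1, DSS replicate 4, DSS + GAA replicate 4 or DSS + GAA replicate 5. The part of these cells in the values of the conjugating enzymes was not tested.

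**Figure D4:**
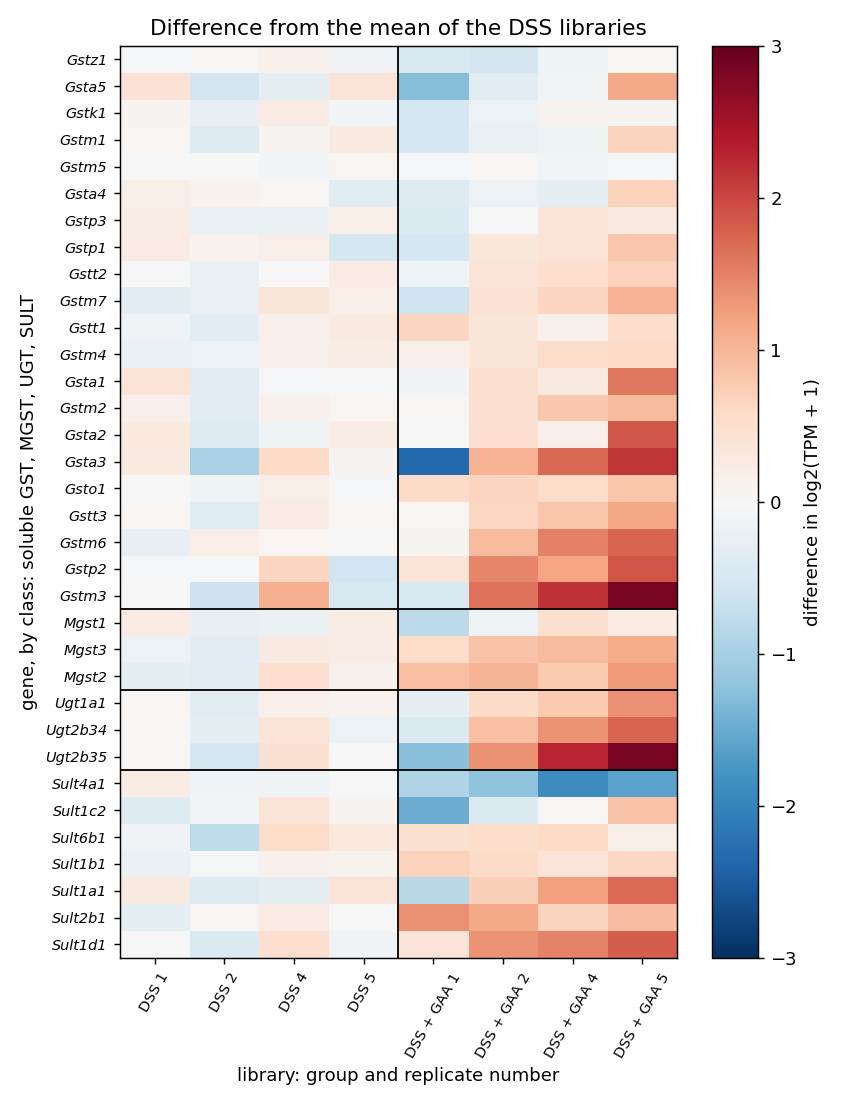
Difference of each library from the mean of the DSS libraries in log2(TPM + 1), for the tested conjugating enzymes ordered by class, with Ugt1a1 standing for the UGT1A locus. The DSS + GAA replicate 1 column is mostly pale or blue while the replicate 5 column is mostly red, and Gsto1, Mgst2, Mgst3, Sult1b1 and Sult2b1 are red in all 4 DSS + GAA libraries.

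Genes that make the donors of the conjugates were measured beside the enzymes. The counts of this list and the following ones stand beside 5.96% higher and 28.2% lower over all tested genes. These shares change with the setting: 15.2% and 9.2% with median centring, 11.8% and 11.3% with quantile normalization, and 2.49% and 53.7% with epithelial centring. They were 4.78% and 23.5% with a replicate block. Leaving out 1 library gave 2.59% to 9.05% higher and 12% to 31.4% lower. Of 22 genes of glutathione supply, 4 rose and 1 fell (median log2 fold change 0.11). Higher calls numbered 2 without any 1 of DSS replicate 1, DSS replicate 2, DSS + GAA replicate 2 or DSS + GAA replicate 4. Leaving out DSS + GAA replicate 1 gave 6 higher and 3 lower, and leaving out replicate 5 of that group gave 3 and 2. Median centring gave 6 higher and 1 lower. The list gave 2 higher and 7 lower with libraries centred on epithelial markers, and 3 and 3 with a replicate block. Cth, which makes cysteine from cystathionine, went from 17.2 ± 5.57 to 53.5 ± 15.7 TPM (log2 fold change 1.59, adjusted p = 0.00553). G6pdx, the NADPH-yielding enzyme of the pentose phosphate pathway, rose by 0.62 on the log2 scale (adjusted p = 0.0173) but not with libraries centred on epithelial markers. Ggt6, of the gamma-glutamyltransferase family, rose by 1.00 (adjusted p = 0.0212), a call lost on leaving out any of 4 libraries (DSS replicate 1 or 2, DSS + GAA replicate 2 or 4). Slc7a11, the cystine importer, fell from 8.35 ± 3.77 to 1.43 ± 0.345 TPM (log2 fold change -1.86, adjusted p = 0.00531). Of 10 tested genes that supply UDP-glucuronic acid or PAPS, 3 rose and 0 fell (median 0.05). A single rise was left with a replicate block, and without any 1 of DSS replicate 2, DSS replicate 5, DSS + GAA replicate 2 or DSS + GAA replicate 4. Leaving out DSS + GAA replicate 1 gave 4 higher and 0 lower, and epithelial centring gave 2 and 1. Slc26a2, a sulfate transporter, went from 116 ± 36.5 to 275 ± 71.2 TPM (log2 fold change 1.26, adjusted p = 0.00799). Ugdh, which makes UDP-glucuronic acid, went from 101 ± 35.3 to 253 ± 113 TPM (log2 fold change 1.27, adjusted p = 0.0234), and this call was lost with a replicate block and on leaving out any of 4 libraries (DSS replicate 2, DSS replicate 5, DSS + GAA replicate 2 and DSS + GAA replicate 4). Papss2, which makes PAPS, barely passed at 0.54 (adjusted p = 0.0496), and its call was lost in 13 alternatives.

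Enzymes that undo conjugation and pumps that export conjugates changed in both directions. Of 7 hydrolases, 0 rose and 2 fell, a share of lower genes near the 28.2% of all tested genes. The 2 were the lysosomal Gusb and Ids, lower by 0.47 (adjusted p = 0.0248) and by 0.62 (adjusted p = 0.00999) on the log2 scale. Neither passed with each library scaled by its median or a trimmed mean, and Gusb also lost its call with quantile normalization, with a replicate block and without DSS replicate 1, DSS replicate 4 or DSS + GAA replicate 2. Epithelial centring gave 4 of the 7 hydrolases lower, where 53.7% of all tested genes were lower. Of 11 tested exporters, 2 rose and 3 fell (median -0.16), a share of lower genes near that of all tested genes. Median centring gave 3 higher and 1 lower, epithelial centring 0 and 5, and leaving out 1 library 0 to 2 higher and 1 to 4 lower, with 0 and 1 without DSS replicate 1. Each of DSS + GAA replicates 2, 4 and 5 left 1 higher and 1 lower when left out. Abcc1 fell from 18.2 ± 2.51 to 10.3 ± 1.04 TPM (log2 fold change -0.76, adjusted p = 0.00655), and this call was kept in every alternative. Abcb1a rose from 60.1 ± 19.3 to 100.3 ± 5.07 TPM (log2 fold change 0.78, adjusted p = 0.0215), while its near copy Abcb1b fell from 3.73 ± 0.617 to 1.76 ± 0.881 TPM (log2 fold change -0.82, adjusted p = 0.0237). Abcc3, a basolateral pump for glucuronides, rose by 0.90 (adjusted p = 0.0328). The Abcb1a, Abcb1b and Abcc3 calls were each lost without DSS replicate 1, and the last 2 also without other libraries. Centring on epithelial markers ended the Abcb1a and Abcc3 calls, and scaling by the median ended that of Abcb1b. Of 10 other tested conjugating enzymes, such as methyltransferases, only Comtd1 passed (log2 fold change 0.50, adjusted p = 0.0282), and it lost its call in 6 alternatives, among them leaving out DSS replicate 1. Epithelial centring gave 0 of these 10 higher and 3 lower, and leaving out DSS + GAA replicate 1 gave 1 and 2.

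Of 29 tested regulators of drug-metabolism genes, 7 rose and 5 fell (median 0.12). Median centring gave 10 higher and 1 lower, quantile normalization 9 and 3, and epithelial centring 4 and 7. Leaving out DSS replicate 1 or DSS + GAA replicate 2 gave 4 and 4, and leaving out DSS + GAA replicate 1 gave 11 and 5. Vdr, the vitamin D receptor, went from 50.6 ± 8.99 to 127 ± 41.0 TPM (log2 fold change 1.26, adjusted p = 0.00824) and Hnf4a, a nuclear factor of enterocytes, from 162 ± 50.4 to 315 ± 37.9 TPM (log2 fold change 0.99, adjusted p = 0.00953). Both calls were kept in every alternative. Ahr, the aryl hydrocarbon receptor, fell by 0.67 (adjusted p = 0.00832) and its partner Arnt by 0.56 (adjusted p = 0.00829) on the log2 scale. With each library scaled by its median neither passed. Nfe2l2, which encodes NRF2 and was named after its values were seen, had a log2 fold change of -0.31 ± 0.19 (adjusted p = 0.211). Of 14 tested genes that are textbook targets of NRF2 or the aryl hydrocarbon receptor outside these families, 1 rose and 4 fell (median -0.14), a share of lower genes close to that of all tested genes. Median centring gave 2 higher and 2 lower, epithelial centring 0 and 6, and a replicate block 0 and 3. Leaving out 1 library gave 0 to 3 higher, with 3 without DSS + GAA replicate 1, and 2 to 4 lower, with 2 without DSS replicate 1 or DSS + GAA replicate 4. Cbr1 rose by 0.98 (adjusted p = 0.0458), a call lost in 11 alternatives, and Slc7a11, Aox1 (log2 fold change -1.40, adjusted p = 0.00596) and Tiparp (-0.93, adjusted p = 0.0213, lost in 5 alternatives) were among those that fell.

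In the authors' deposited table, at a false discovery rate of 0.05, 30 of the 54 members were higher and 5 lower, or 22 of 46 higher with the UGT1A locus counted once. Over all genes, 10.3% in the authors' deposited table were higher and 16.2% lower. With the UGT1A locus counted once, the authors' deposited table calls 10 soluble GST, 2 MGST, 5 UGT and 5 SULT genes higher, where limma called 3, 2, 0 and 3. Called lower in the authors' deposited table are 1 soluble GST and 4 SULT genes. For Ugt1a1 the authors' deposited table gives a log2 fold change of 0.72 with a false discovery rate of 0.00475, and for Ugt2b34 it gives 1.07 with 8.57e-05. The sources used here do not name the test behind those values. Among the UGTs it calls are Ugt2b5 and Ugt2b36, neither of which exceeded 0.346 TPM in any library.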

How the data were processed

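The authors deposited 1 table with a TPM value per gene and library, and, per the file headers, the log2 fold change of each gene with its p-value and false discovery rate. Per the submitters' processing notes, the build was mm10 and the tools included HISAT2, featureCounts and edgeR, with no versions or roles. The sources used here do not state strandedness.

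Genes reaching 1 TPM in 4 or more of the 8 libraries were kept (14217 of 18262). Their log2(TPM + 1) values were fitted by limma (version 3.58.1, with statmod 1.5.0, under R 4.3.3) on group alone, with robust empirical Bayes and a variance trend. Fold changes use this scale, and those of low genes are understated by it. P-values are two-sided and Benjamini-Hochberg adjusted over all tested genes, with a threshold of 0.05. The procedure was tested on simulated data. Errors are SD over 4 libraries for TPM and SE for log2 fold changes. The text names every member that passed, the 2 most abundant tested members of each class, the most abundant tested member of each soluble GST class, of UGT1A, UGT2 and SULT1, and from each pathway list up to 4 passing genes of smallest p; other genes are marked. Members, lists and tests were chosen with earlier results of these data known. Gene coordinates and transcripts are from GENCODE vM21 (GRCm38), and 18 alternatives were run.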

Additional observations from a re-analysis of the deposited data

Results flagged for a closer look

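Gsta4 in DSS + GAA replicate 5 stood at 146 TPM, while the other 3 DSS + GAA libraries lay between 69.4 and 80.5 TPM, a gap large enough to set that library apart from its group. Of 54 groups of 4 libraries examined, 2 for each of 27 named members, this was the sole case. Chance alone sets a library apart in about 1 of 20 groups.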

How the results depend on the processing

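Of the 9 calls, Mgst2, Mgst3, Sult2b1 and Sult4a1 were kept in all 18 alternatives (other pseudocounts and filters, 4 scalings, another variance fit, a replicate block, and each library left out), and the others were lost where stated above. With no filter on low values 4 members were lower instead of 1 (SULT 3, soluble GST 1). Members higher numbered 13 with median centring, 14 with quantile normalization and 13 with trimmed mean scaling (soluble GST 8 in each), where the median change over all genes moved by 0.30, 0.27 and 0.25. Centring on epithelial markers moved it by -0.32 and left 5 members higher (soluble GST 1) and 2 lower (soluble GST 1). Leaving out each library in turn gave 5 to 27 members higher, soluble GST 1 to 10, UGT 0 to 11 and SULT 2 to 4. With the UGT1A locus counted once, members higher numbered 5 to 19. The lowest count of members came with DSS replicate 1 left out, where 2.59% of all tested genes were higher. The highest came with DSS + GAA replicate 1 left out, where 9.05% were higher. With the replicate number as a block, 8 members were higher and 1 lower, as without it. Deviations of same-numbered libraries from their group means correlated at r of 0.18, -0.11, 0.15 and -0.03. Differently numbered libraries gave -0.17 to 0.15. The labels do not say whether the numbers mark pairs, and with so few libraries these values cannot settle it. Signs turned in uncalled genes alone. With median centring, Gstz1 was 0.022, Gstm5 0.26, Gstm1 0.25, Gstk1 0.18, Mgst1 0.25 and Gsta4 0.27. Under quantile normalization Gstm5 was 0.11 and Gsta4 0.059. With trimmed mean scaling Gstm5 was 0.23, Gstm1 0.22, Gstk1 0.15, Mgst1 0.22 and Gsta4 0.24. Centred on epithelial markers, Gstp1 was -0.064. Leaving out each library gave Gstm1 -0.29 to 0.10, Gstk1 -0.21 to 0.0089, Mgst1 -0.24 to 0.19 and Gsta4 -0.27 to 0.082. The cause of these shifts was not tested. TPM keeps no depth, so what depth limits is unknown.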
